A study of Mus musculus with 2 samples.

Results

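The genes described here carry out or control the synthesis of sterols and fatty acids. They were chosen as a fixed list of 34 mouse genes in 3 groups by role: 18 enzymes of sterol synthesis, 6 genes that control the sterol regulatory element binding proteins (SREBPs), and 10 genes of fatty acid synthesis, elongation and desaturation. Probes were assigned to them by the RefSeq accession in the scanner files, and all 34 were found, on 47 probes, out of 20654 named genes and 55649 probes of all kinds. Of the 34, 33 were well above background on both arrays (45 of the 47 probes), and Fads2 was above background on neither.

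The study hybridised RNA of osteoclasts to 1-colour (Cy3) Agilent arrays. Osteoclasts are the multinucleated cells that resorb bone. They were grown from nonadherent bone marrow cells of female C57BL/6 mice, first with M-CSF, a growth factor of the monocyte line, and then with RANKL added, the signal that turns such precursors into osteoclasts. There were 2 groups with 1 array each, Dnmt3a knockout cells and wild type cells, and both had this strain, sex and culture in common. Dnmt3a is a DNA methyltransferase that places new methyl groups on CpG sites. The knockout allele, the cells in which the gene was lost and the number of mice behind each RNA are not given in the sources used here. Neither genotype was replicated, and the values below are descriptions of these 2 arrays without a statistical test.

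Cells make cholesterol from acetyl-CoA through the mevalonate pathway, which also supplies the isoprenoids that anchor small GTPases to membranes. In osteoclasts this branch is well known because nitrogen-containing bisphosphonates, drugs used against bone loss, block farnesyl diphosphate synthase (Fdps). Both syntheses are controlled by SREBPs, transcription factors made as membrane proteins of the endoplasmic reticulum. When sterols are low, Scap escorts them to the Golgi for cleavage, and when sterols are plentiful, Insig proteins hold Scap back. Fatty acids made by Fasn are saturated, and elongases of the Elovl family lengthen them. Stearoyl-CoA desaturases (Scd) then introduce a double bond to give monounsaturated fatty acids, whereas the Fads enzymes act on polyunsaturated ones.

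With each array scaled to its 75th percentile (the main setting), the sterol pathway differed little from most other genes. The largest differences among the members lay in the desaturases. Scd1 and Scd2 were 1.64-fold and 1.58-fold lower on the knockout array, and Fads1 was 1.55-fold higher. The 18 sterol enzymes had a median log2 difference (knockout minus wild type) of -0.04, the 6 SREBP control genes of 0.02 and the 9 measured fatty acid genes of -0.17, beside a median of 0.01 over all 13479 genes measured on both arrays. The sterol median depends on the scaling. With median scaling it was -0.23, beside -0.18 over all measured genes, and with spike-in scaling -0.56, beside -0.52. A log2 difference of 0.32 or more was used as a descriptive limit. Of the 33 measured members, 3 passed it upward (Fads1, and Mvd and Tm7sf2, which were below 0 with spike-in scaling) and 3 downward (Scd1, Scd2 and Hsd17b7), each 9.09% of them. Of all measured genes, 15.8% passed it upward and 13.8% downward. The members' shares were lower than these, but the downward comparison turns with the scaling: 33.3% of the members and 30.3% of all genes passed it downward with median scaling, and 84.8% and 75.4% with spike-in scaling. Without the upper rows of the array, 17.4% of the 23 members left and 13.3% of all genes passed it downward. Of the members, 14 lay above 0 and 19 below, and of all measured genes 51.9% above and 48.1% below. At 1.5-fold there were 1 member higher (3.03%) and 2 lower (6.06%), beside the 5.82% and 4.69% of all measured genes. No member reached 2-fold in either direction, which 0.824% of all measured genes did upward and 0.727% downward. Within 0.20 of 0 lay 22 of the 33 members (66.7%) and 52% of all measured genes. Both shares are those of the main setting, and median and spike-in scaling lower every difference.

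**Figure D1:**
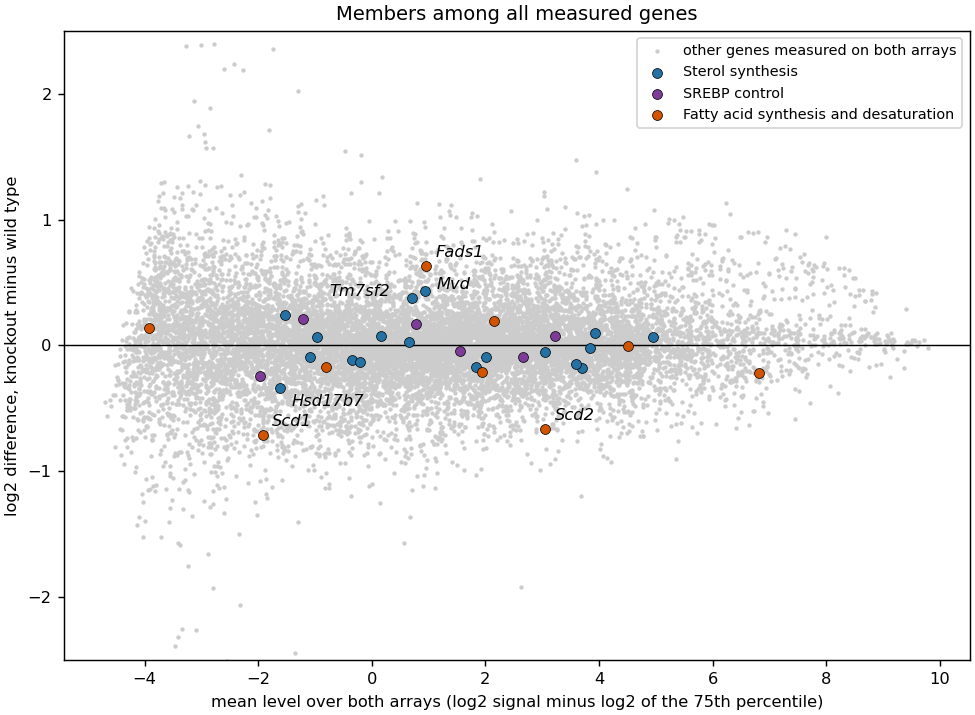
Each measured gene by its mean level over both arrays (x axis, log2 signal minus the log2 of the 75th percentile of the array) and its log2 difference, knockout minus wild type (y axis). Grey points are the other genes measured on both arrays, and 10 of them lie below the plotted range, which ends at 2.5 in either direction. Coloured points are the 33 measured members. Most members lie near 0, with Fads1 at 0.63 above and Scd2 at -0.66 and Scd1 at -0.71 below them.

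Differences were taken after scaling each array to its 75th percentile, 571.6 on the knockout and 583.6 on the wild type array. Each difference is therefore read against most other genes. Scaling to the array median lowers the median of all measured genes to -0.18, and scaling to 8 spike-in probes lowers it to -0.52, so that the members' differences fall by the same amounts while their order and the gaps between them stay as they are. The share of upward differences among all measured genes past the limit of 0.32 was 53.3% in the main setting, 20.4% with median scaling and 2.28% with spike-in scaling. The error given with a difference is that of the scanner software for both spots, about 0.20 on the log2 scale. It says how well a spot was read, and nothing about how cultures or animals vary. Among 259 probes with repeated spots, the median SD of the difference between the arrays was 0.07. The Dnmt3a probe had a processed signal of 1822 on the knockout array and 7042 on the wild type array, a difference of -1.92, lower in the array labelled knockout. The sources used here do not say whether this probe lies in the deleted stretch.

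Promoter sequences from RefSeq (GRCm38.p6, 250 bases before to 50 after the start) were found for 27 of the 34 genes, as 36 promoters. Scd1, Scd2, Fads1, Fdps, Fdft1, Sqle and Stard4 were not among them. They are shown because these genes share a known regulator: SREBPs bind sterol regulatory elements (SREs) and E-boxes, usually beside the CCAAT boxes of NF-Y and the GC boxes of Sp1. Of the 6 printed, Hmgcs1 and Srebf2 held a short SRE core, Insig1 and Elovl5 an E-box, and Mvd and Tm7sf2 had the largest differences of the genes with a promoter here. Capitals mark the short SRE core (TCACNCCA), extended in Hmgcs1 by the base that completes the longer core (TCACNCCAC), the E-box (CACGTG) and the CCAAT box (CCAAT), each searched on both strands, and none of these marks overlap in the 6 printed promoters. The positions are chr13:119690101-119690400 on the plus strand for Hmgcs1, chr15:82147019-82147318 on the plus strand for Srebf2, chr5:28071162-28071461 on the plus strand for Insig1, chr9:77917115-77917414 on the plus strand for Elovl5, chr8:122443373-122443672 on the minus strand for Mvd and chr19:6067801-6068100 on the minus strand for Tm7sf2.
Hmgcs1: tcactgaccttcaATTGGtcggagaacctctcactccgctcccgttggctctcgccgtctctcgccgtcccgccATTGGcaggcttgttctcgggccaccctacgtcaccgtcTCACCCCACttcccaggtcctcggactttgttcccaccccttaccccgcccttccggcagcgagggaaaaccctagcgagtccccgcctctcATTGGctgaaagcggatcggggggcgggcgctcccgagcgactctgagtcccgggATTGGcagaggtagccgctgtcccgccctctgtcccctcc
Srebf2: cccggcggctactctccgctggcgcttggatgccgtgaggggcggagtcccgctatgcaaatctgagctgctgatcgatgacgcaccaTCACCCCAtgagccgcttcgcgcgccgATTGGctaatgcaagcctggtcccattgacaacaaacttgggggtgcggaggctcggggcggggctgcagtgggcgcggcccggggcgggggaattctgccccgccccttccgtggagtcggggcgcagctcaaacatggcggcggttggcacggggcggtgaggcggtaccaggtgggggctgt
Insig1: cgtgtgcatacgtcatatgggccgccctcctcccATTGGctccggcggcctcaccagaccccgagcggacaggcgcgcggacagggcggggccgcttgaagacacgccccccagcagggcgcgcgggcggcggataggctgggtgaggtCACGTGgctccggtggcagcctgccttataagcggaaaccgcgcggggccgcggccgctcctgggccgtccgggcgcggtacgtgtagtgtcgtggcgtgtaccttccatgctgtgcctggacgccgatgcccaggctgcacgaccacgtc
Elovl5: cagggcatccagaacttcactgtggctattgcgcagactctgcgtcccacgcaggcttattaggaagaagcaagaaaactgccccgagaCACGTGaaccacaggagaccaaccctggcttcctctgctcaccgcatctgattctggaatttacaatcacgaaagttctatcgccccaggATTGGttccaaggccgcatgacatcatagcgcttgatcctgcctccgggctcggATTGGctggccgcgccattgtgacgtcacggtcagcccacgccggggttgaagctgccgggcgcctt
Mvd: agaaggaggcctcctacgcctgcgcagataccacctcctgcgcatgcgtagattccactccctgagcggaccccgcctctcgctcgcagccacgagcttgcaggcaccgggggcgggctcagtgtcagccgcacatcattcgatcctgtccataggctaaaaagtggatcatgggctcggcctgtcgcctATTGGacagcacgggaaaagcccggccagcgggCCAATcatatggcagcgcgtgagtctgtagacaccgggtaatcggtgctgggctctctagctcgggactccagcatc
Tm7sf2: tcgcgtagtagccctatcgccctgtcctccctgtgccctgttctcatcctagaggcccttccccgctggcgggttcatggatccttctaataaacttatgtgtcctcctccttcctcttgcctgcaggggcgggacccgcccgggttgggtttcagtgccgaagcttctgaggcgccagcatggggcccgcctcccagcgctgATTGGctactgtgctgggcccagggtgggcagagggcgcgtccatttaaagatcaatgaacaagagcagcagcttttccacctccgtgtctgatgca

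The longer core TCACNCCAC was found in 1 of the 36 promoters (2.78%), that of Hmgcs1, and in 1.24% of all 32851 promoters. The shorter core TCACNCCA, which contains every match of the longer one, was found in 3 (8.33%), those of Hmgcs1, Msmo1 and Srebf2, against 4.36% of all promoters. E-boxes stood in 7 promoters of 6 genes (19.4%, against 7.15% of all), namely Hsd17b7, Sc5d, Dhcr7, Scap, Insig1 and Elovl5. The windows of Scap overlap and hold the same E-box. CCAAT boxes stood in 63.9% of the members' promoters and 37.4% of all, and GC boxes (GGGCGG) in 75% and 35.7%. The exact DR4 repeat of liver X receptors, an element of Srebf1 control, was found in 0 of the 36 and in 0.0152% of all promoters. The members' promoters held a median of 20 CpG sites in 300 bases, from 0 to 39, and all promoters a median of 7. Their median GC content was 61.8%, against 52.7% over all promoters. Genes with an E-box had differences between -0.33 (Hsd17b7) and 0.21 (Insig1) in the main setting. With spike-in scaling all 6 were below 0, from -0.86 to -0.32. This does not set them apart, since all other measured members except Fads1 were below 0 too. The median of all measured genes was then -0.52.

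The early steps of sterol synthesis lead from acetyl-CoA to farnesyl diphosphate. Acat2, the cytosolic thiolase that joins acetyl units, had a signal of 215 on the knockout array and 185 on the wild type array (difference 0.24, error 0.21). Hmgcs1, the cytosolic HMG-CoA synthase, had 6530 on the knockout array and 7377 on the wild type array (difference -0.15, error 0.20). These 2 neighbouring enzymes thus had differences of opposite sign, each near the size of its error. The mevalonate kinase Mvk had 4665 on the knockout and 4944 on the wild type array (difference -0.05, its other probe 0.09). The phosphomevalonate kinase Pmvk had 8165 on the knockout and 8432 on the wild type array (difference -0.02, its other probe -0.05). All 4 kinase probes lay within the scanner error of 0.

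Mvd, the decarboxylase that makes isopentenyl diphosphate, stood apart from these, with 1276 on the knockout and 966 on the wild type array. It was 1.35-fold higher (difference 0.43, error 0.20, 1 probe), but its difference was 0.24 with median scaling, under the limit of 0.32, and -0.10 with spike-in scaling. Of the 1000 measured genes closest to it in level, 8.7% were as high or higher. The next enzymes had differences below 0 again. Idi1, the isopentenyl diphosphate isomerase, had 2223 on the knockout and 2417 on the wild type array (difference -0.09), and Fdps, the target of the bisphosphonates, had 6973 on the knockout and 8062 on the wild type array (difference -0.18, error 0.20). Both were within their scanner error. Over the 7 enzymes of these steps the median was -0.05, with 2 above and 5 below 0.

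From squalene synthase on, the pathway is committed to sterols. Fdft1, that synthase, had a difference of 0.07 (its other probe 0.19). The epoxidase Sqle, which acts next, had 1930 on the knockout and 2223 on the wild type array (difference -0.17). The lanosterol synthase Lss (-0.11) and the lanosterol demethylase Cyp51 (-0.09) lay near it, as did the methyl sterol oxidase Msmo1 (0.10), the isomerase Ebp (0.06), the desaturase Sc5d (0.03) and Dhcr7, the reductase that ends in cholesterol (0.07). None of these exceeded its scanner error in the main setting.

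Tm7sf2 and Hsd17b7 were the 2 enzymes of this stretch past 0.32 in size, and each had 2 probes of the same sign. Tm7sf2, a sterol reductase that acts after Cyp51, had 1065 on the knockout and 836 on the wild type array. It was 1.30-fold higher (difference 0.38, error 0.20, its other probe 0.46), but its difference was 0.31 after normexp and 0.18 with median scaling, both under the limit, and -0.15 with spike-in scaling. Hsd17b7, the reductase that takes part in removing the methyl groups, had 167 on the knockout and 215 on the wild type array (difference -0.33, error 0.21, its other probe -0.22). It was 1.26-fold lower in the main setting, but its difference was -0.17 after normexp background correction and -0.28 as a mean over probes, both short of the limit. Nsdhl, which works beside Hsd17b7, had probes of opposite sign: the brighter gave 473 on the knockout and 528 on the wild type array (-0.13), and the dimmer gave 101 and 71.4 (0.52, error 0.24). Its direction is therefore uncertain. Over the 11 enzymes of these steps the median was 0.03. Of all 18 sterol enzymes, 14 (77.8%) lay within 0.20 of 0 in the main setting, beside 52% of all measured genes. This share depends on the scaling, since the median of the 18 was -0.23 with median scaling and -0.56 with spike-in scaling.

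**Figure D2:**
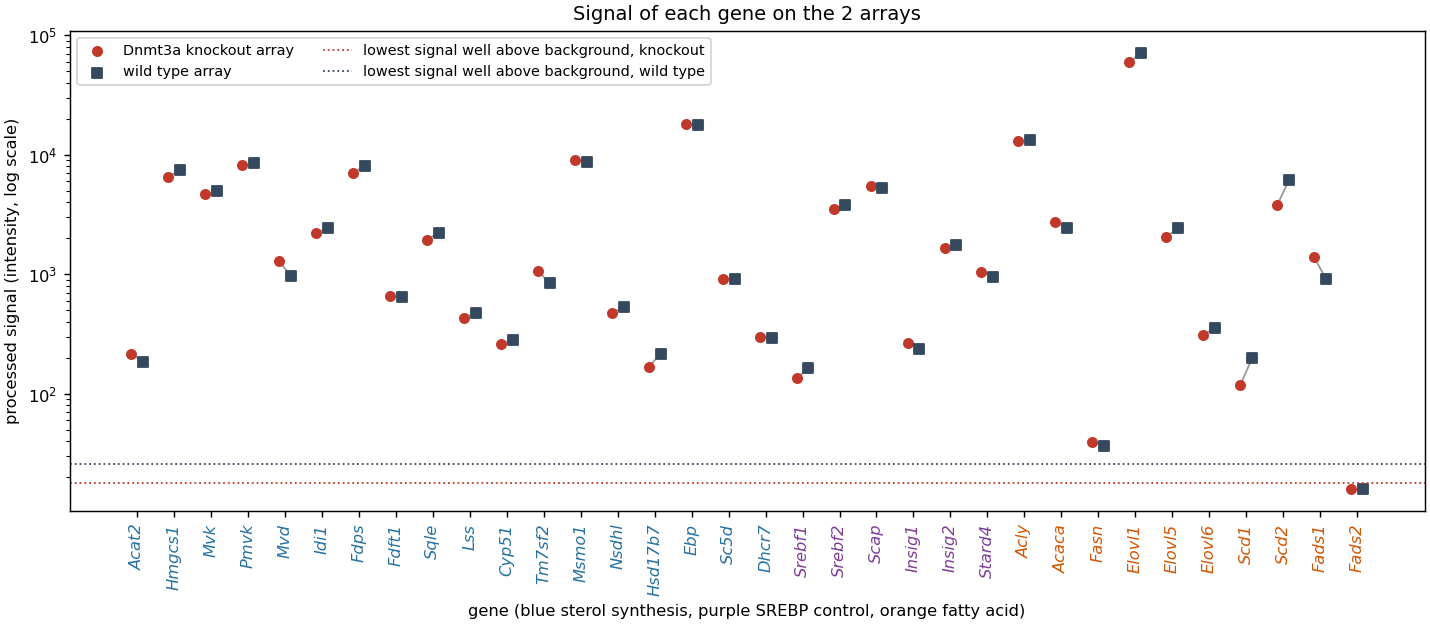
Processed signal (y axis, intensity on a log scale) of the brightest probe of each of the 34 genes (x axis) on the Dnmt3a knockout array (circles, left of each pair) and the wild type array (squares, right), with dotted lines at the dimmest signal called well above background, 17.7 on the knockout and 25.8 on the wild type array. Signals of different probes cannot be set against each other. Pairs are close for most genes, Fasn lies just above the dotted lines and Fads2 (15.8 on the knockout, 15.9 on the wild type array) below them.

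The genes that control SREBPs had differences between -0.24 and 0.21, and 0 of the 6 passed 0.32. Srebf2, which encodes the SREBP that mainly drives sterol synthesis, had 3492 on the knockout and 3808 on the wild type array (difference -0.09, its other probe -0.05). Srebf1, whose products mainly drive fatty acid synthesis, had 135 on the knockout and 163 on the wild type array (difference -0.24, error 0.22, 1 probe). The escort protein Scap had 5476 on the knockout and 5293 on the wild type array (0.08). Of these 3, Srebf1 had the largest difference, about the size of its scanner error.

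Insig1, the retention protein that is itself a target of SREBPs, had 266 on the knockout and 236 on the wild type array (0.21, error 0.21). Its relative Insig2 had 1652 on the knockout and 1735 on the wild type array (-0.04, its other probe -0.11). Stard4, a carrier that moves cholesterol between membranes, had 1039 on the knockout and 940 on the wild type array (0.17, error 0.20). A dimmer probe of Stard4 gave 110 on the knockout and 89.4 on the wild type array (0.33, error 0.23). The differences of Insig1 and Stard4 were about the size of their errors, and that of Insig2 was smaller. Both Insig1 and Stard4 were negative with spike-in scaling (-0.32 and -0.35), and Stard4 also with median scaling (-0.02).

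Of the enzymes that make palmitate, none passed 0.32 by its brightest probe. Acly, which releases acetyl-CoA from citrate, had 12945 on the knockout and 13279 on the wild type array (-0.01, its other probe 0.08). Acaca, the acetyl-CoA carboxylase that makes malonyl-CoA, had 2717 on the knockout and 2425 on the wild type array (0.19, error 0.20). A much dimmer probe of Acaca gave 34.4 on the knockout and 46.8 on the wild type array (-0.41, error 0.34), and one more was above background on neither array, so the probes disagree. Fasn, the fatty acid synthase, had only 39.4 on the knockout and 36.6 on the wild type array (0.14, error 0.35), close to the background limit of each array. Its difference is therefore poorly resolved here.

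The 3 elongases among the members had differences below 0, of -0.17 to -0.22. Elovl1, which lengthens long saturated and monounsaturated chains, had 59519 on the knockout and 70665 on the wild type array (-0.22, error 0.20, its other probe -0.29). Elovl5, which lengthens polyunsaturated chains, had 2048 on the knockout and 2425 on the wild type array (-0.21). Elovl6, which turns palmitate into stearate, had 310 on the knockout and 356 on the wild type array (-0.17, error 0.21). These differences are near their errors, and 0 of the 3 passed 0.32. Elovl7, a further elongase that is no member, had 269 on the knockout and 375 on the wild type array (-0.45, error 0.21) and did pass it. The 3 members kept their sign under every alternative that held them. Median and spike-in scaling lower every difference, so neither could bring these above 0.

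The desaturases showed the widest differences. Scd1 had a signal of 118 on the knockout array and 197 on the wild type array, a difference of -0.71 (error 0.21, 1 probe). Scd2 had 3782 on the knockout array and 6107 on the wild type array, a difference of -0.66 (error 0.20, 1 probe). Both paralogues, which introduce the same double bond into stearate and palmitate, were thus lower on the knockout array by over 3 times the scanner error. Ranked from the lowest among the 13479 measured genes, Scd1 was at place 347 and Scd2 at place 445. Among the 1000 measured genes closest in level, 4.2% were as low as Scd1 or lower and 1.0% as low as Scd2 or lower. With 1 bulk RNA per genotype, fewer cells that express these genes and less of their RNA per cell cannot be told apart.

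Fads1, the desaturase that completes arachidonate, went the other way. It had 1382 on the knockout array and 910 on the wild type array, a difference of 0.63 (error 0.20, 1 probe), which put it at place 644 from the highest, and 3.4% of the 1000 genes closest in level were as high or higher. It stayed above 0 in all 10 alternatives, at its lowest 0.10 with spike-in scaling, within its scanner error of 0.20. Several of the 10, such as no filter on dim probes or means over probes, leave its 1 spot unchanged and could not alter its sign. The spike-in shift ran from 0.30 to 0.72 over the 8 probes, and 0.72 exceeds 0.63. The call of Fads1 past 1.5-fold ended with median scaling (0.44) and with spike-in scaling, and that of Scd1 ended after normexp background correction (-0.50). The gap between the differences of Fads1 and Scd2 was 1.29, and between those of Fads1 and Scd1 1.34. Such a gap does not depend on a scaling factor of the whole array. It ranged from 1.24 to 1.32 for Scd2 and from 1.13 to 1.36 for Scd1 over the settings run. Only normexp, quantile normalization and the subtraction of neighbouring spots moved it. The other settings rescale an array, drop spots or genes, or average the probes of a gene, and so leave this gap as it is. Fads2, the enzyme that precedes Fads1 and Elovl5 in the same route, was not well above background on either array, so no fold is given.

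**Figure D3:**
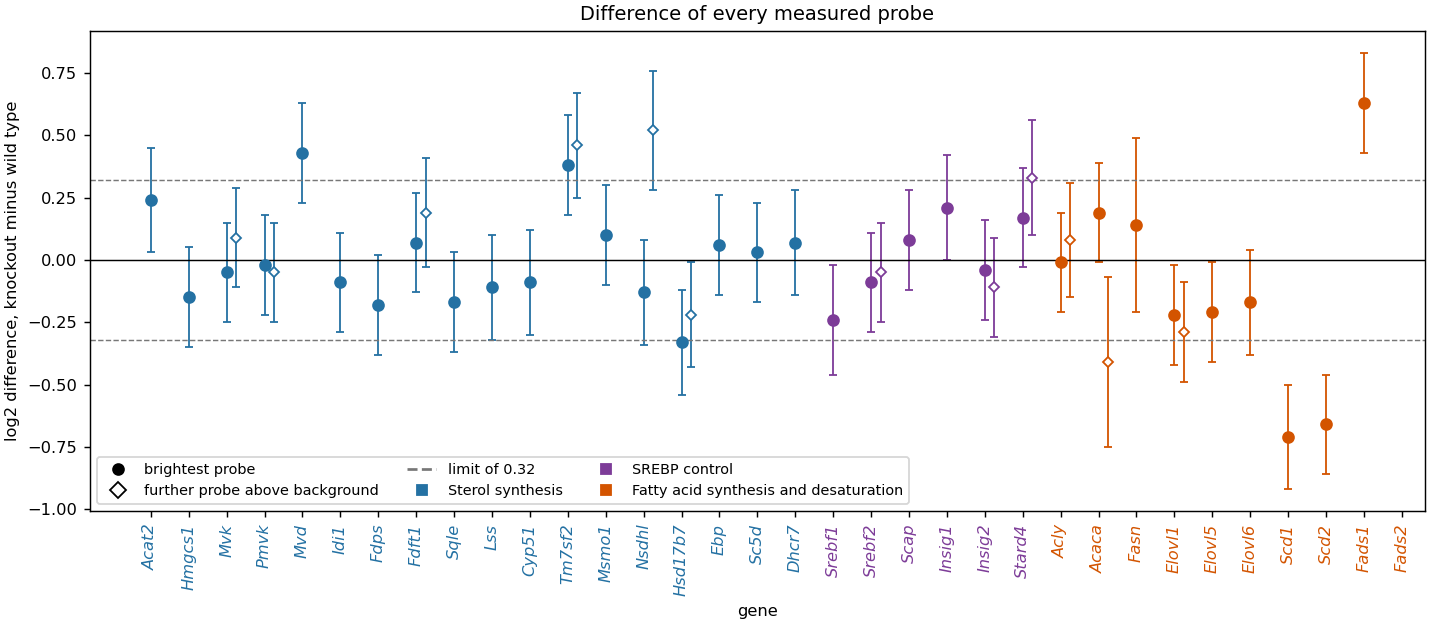
Log2 difference, knockout minus wild type (y axis), of every probe well above background on both arrays, by gene (x axis). Filled circles are the brightest probe of each gene, open diamonds its further probes, bars the scanner error of both spots and dashed lines the limit of 0.32 in each direction. Fads1 (0.63), Scd1 (-0.71) and Scd2 (-0.66) stand outside the other genes, Mvd and Tm7sf2 lie above the upper dashed line (though below 0 with spike-in scaling), and the probes of Nsdhl and of Acaca disagree.

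Position on the array was checked for each probe against its surroundings. The spot of Scd2 lies at row 367 and column 146, close to an edge, and the 211 other spots well above background within 10 rows and 10 columns had a median difference of 0.03. Subtracting it left Scd2 at -0.69. In the same way Scd1 became -0.70, Fads1 0.62, Mvd 0.41, Tm7sf2 0.28 and Hsd17b7 -0.36. Among these 6 genes only Tm7sf2 fell below the limit of 0.32, since its 214 neighbours had a median of 0.10, and its other probe became 0.44. Of all members Sqle moved most, from -0.17 to -0.31, since its 107 neighbours had a median of 0.14. It then exceeded its scanner error of 0.20 but not the limit.

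**Figure D4:**
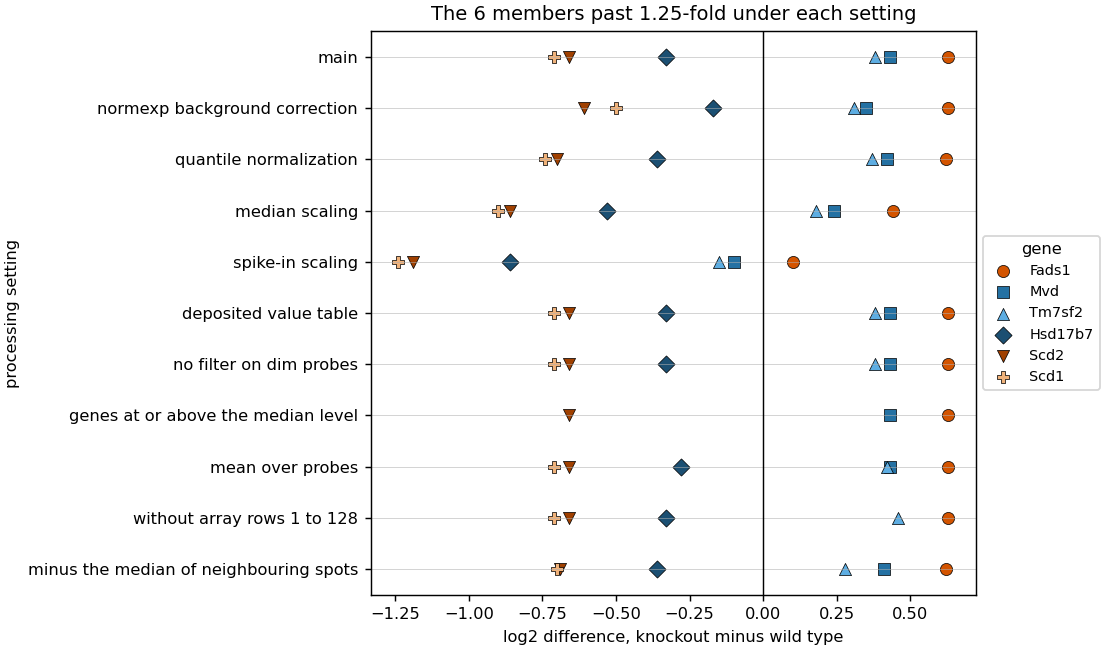
Log2 difference, knockout minus wild type (x axis), of the 6 genes past 0.32 under the main setting and each alternative (y axis, one row a setting). A missing marker means that the setting left the gene out. Scd1 and Scd2 stay below 0 in every row that holds them, and median and spike-in scaling could not raise them, since both lower every difference. Fads1 stays above 0, with spike-in scaling at 0.10, within its scanner error of 0.20. Mvd (-0.10) and Tm7sf2 (-0.15) change sign with spike-in scaling. The spike-in shift ran from 0.30 to 0.72 over the 8 probes.

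Further genes around these pathways were set beside them, on lists chosen with earlier results of these data known. Of all measured genes, 15.8% passed 0.32 upward and 13.8% downward. The isoprenoid branch (13 genes, all measured) had a median of -0.02, with 0 past 0.32 upward and 2 (15.4%) downward. Its lowest were Pdss1 (265 on the knockout, 424 on the wild type array, -0.65) and Pdss2 (180 and 239, -0.38), the subunits of the synthase of the coenzyme Q side chain. Its highest were the prenyl protease Rce1 (0.30) and Rabggta (0.21), a subunit of the transferase that prenylates Rab proteins. Coq2, the next enzyme of coenzyme Q synthesis, had 4528 on the knockout and 4691 on the wild type array (-0.02). Genes of SREBP cleavage, degradation and partner factors (16 genes) had a median of -0.02 as well, with 0 past 0.32 upward and 1 (6.25%) downward. Erlin2 (-0.46), which helps degrade sterol pathway proteins in the endoplasmic reticulum, and Nfyb (-0.24), a subunit of NF-Y, were lowest. The SREBP protease Mbtps2 (0.24) and the ubiquitin ligase subunit Fbxw7 (0.23) were highest.

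Genes that supply acetyl-CoA and NADPH, activate fatty acids or act in elongation (24 genes, 20 measured) had a median of -0.02. Of the 20, 3 (15%) passed 0.32 upward and 5 (25%) downward, beside 15.8% and 13.8% of all measured genes. The highest were G6pdx (42049 on the knockout, 32466 on the wild type array, 0.40), the entry enzyme of the pentose phosphate pathway, and the acetyl-CoA synthetase Acss2 (0.35). The lowest were Fads3 (1625 on the knockout, 2434 on the wild type array, -0.55), a further desaturase, and the acyl-CoA synthetase Acsl3 (-0.51). Fads3 and Fads1 thus had differences of opposite sign. Olah was above background on the knockout array only and at least 1.03-fold higher there, and Thrsp likewise, with no fold that can be bounded. Elovl3 and Elovl4 were above background on neither.

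Genes of glycerolipid assembly and storage (13 genes, 12 measured) had a median of 0.16. Of the 12, 3 (25%) passed 0.32 upward and 1 (8.33%) downward, beside 15.8% and 13.8% of all measured genes. The highest were the phosphatidate phosphatase Lpin2 (1148 on the knockout, 761 on the wild type array, 0.62) and Soat1, which esterifies cholesterol (1275 on the knockout, 973 on the wild type array, 0.42). The lowest were the monoglyceride lipase Mgll (-0.38) and the diglyceride acyltransferase Dgat1 (-0.09). With spike-in scaling the differences of G6pdx, Acss2, Rce1, Rabggta, Mbtps2, Fbxw7 and Soat1 become negative, since each is below the shift of 0.53. That of Lpin2 stays above 0, though the shift reached 0.72 over the spike-in probes, which exceeds its 0.62.

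Markers of the cell types in such cultures differed between the arrays. All 10 osteoclast markers were measured, with a median of -0.56 and 7 (70%) past 0.32 downward, beside 13.8% of all measured genes. Acp5 (-0.0), Ctsk (-0.18) and Clcn7 (-0.18) did not pass it. The summed signal of the 10 was 990104 on the knockout and 1155236 on the wild type array. Most of it came from Acp5 (442434 and 451856) and Ctsk (356772 and 413300). Macrophage markers (7 of 8 named on the array, all measured) had a median of 0.79, from 0.10 (Csf1r) to 1.47 (Marco). Their summed signal was 431717 on the knockout and 375590 on the wild type array, of which Csf1r gave 332857 and 317392. Markers of stromal cells and osteoblasts (8 of 9 measured) had a median of -0.71, though Lepr was at 0.16 and Kitl at -0.01. Their sums were 46673 on the knockout and 73134 on the wild type array, with Runx2 included, which was above background on neither. Neutrophil markers (7 of 7 measured) had a median of 0.55 and sums of 89017 on the knockout and 65343 on the wild type array. With spike-in scaling each of these medians falls by 0.53. The part of these markers in the differences of Scd1, Scd2 and Fads1 was not tested. Of 8 markers of adipocytes, which make much fatty acid, Cfd and Lipe were measured on both arrays, and Plin1, Cidec, Lep and Retn were above background on neither. Adipoq (25.7) and Pck1 (27.2) passed the background limit on the knockout array alone, where that limit was lower (17.7, against 25.8 on the wild type array). They were at least 1.02-fold and 1.08-fold higher there, and their differences had scanner errors of 1.01 and 1.02. The summed signal of the 8 adipocyte markers, those below background included, was 376 on the knockout and 312 on the wild type array.

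**Figure D5:**
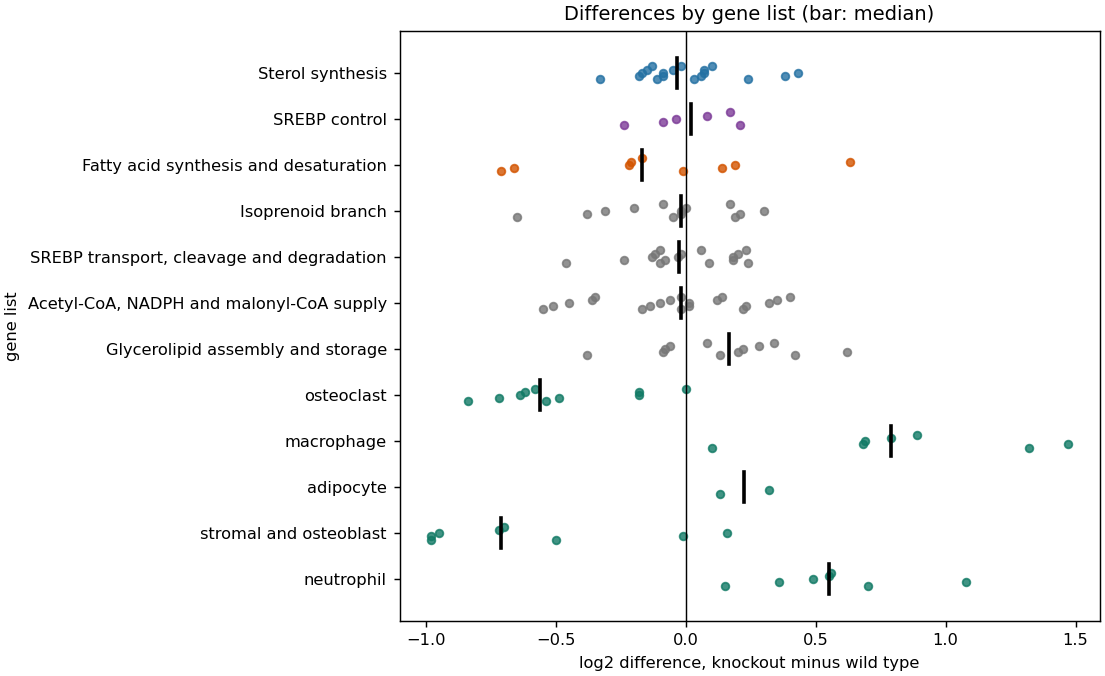
Log2 difference, knockout minus wild type (x axis), of each gene measured on both arrays, by list (y axis). Points are genes, black bars the list medians, blue, purple and orange the 3 groups of members, grey the surrounding pathways and green the cell type markers. The sterol and SREBP groups centre near 0 (-0.04 and 0.02), whereas the osteoclast (-0.56) and stromal (-0.71) markers lie to the left and the macrophage (0.79) and neutrophil (0.55) markers to the right. With spike-in scaling all points move left by 0.53.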

How the data were processed

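Per the file headers, the deposited scanner files hold spot intensity after background subtraction and spatial detrending (Agilent Feature Extraction, version 10.10.1.1, with the protocol GE1_1010_Sep10 and build mm9), not normalized between arrays. The submitters' processing notes name version 9.1. Both arrays share a slide and a scan. The deposited value table holds the same intensity multiplied by 1.54 (knockout) and 1.55 (wild type), linear and not centred (medians 66.5 and 59.6), and served as an alternative.

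Log2 of the processed signal minus that of the array's 75th percentile over 59305 spots was taken with Python 3.11.15, marked spots (172 on the knockout, 157 on the wild type array) were left out, and spots of a probe were averaged. Accessions matched a RefSeq table (GRCm38.p6) for 27224 probes (48.9%), and each gene is given by its brightest probe. Measured means well above background on both arrays. Of the spots, 35398 (59.7%) were well above background on the knockout array and 31272 (52.7%) on the wild type array. No spot was saturated. Where only 1 array had a gene above background, a lower bound of the fold was taken against the dimmest well-measured signal of the other. The number of arrays limits the precision.

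Members, lists and folds were chosen with earlier results of these data known. Every member is named, and of each surrounding list the 2 highest and 2 lowest. Normexp (limma 3.58.1, offset 50) used median spot signals, since the files hold no mean signal. The computation of the differences was tested on simulated data. Quantile, median and spike-in scaling, no filter on dim probes, brighter genes only and means over probes were further alternatives.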

Additional observations from a re-analysis of the deposited data

How the results depend on the processing

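No paired analysis was possible because each genotype has 1 array, and for the same reason no replicate could be left out. Over 10 alternatives, 268 differences of single members moved by less than the scanner error and 37 by more, 33 of these with spike-in scaling, which lowers every difference by 0.53 (0.30 to 0.72 over the 8 probes). With it the group medians were -0.56 (sterol synthesis), -0.51 (SREBP control) and -0.70 (fatty acid genes), 0 members passed 0.32 upward and 28 downward, and Mvd (-0.10) and Tm7sf2 (-0.15) changed sign. With median scaling these counts were 1 and 11. By the construction of both scalings, the shift is the same for all genes. When only genes of at least median level were kept (18 members), 1 passed it downward, since Scd1 and Hsd17b7 lie below that level. Acaca was at -0.11 as a mean over probes and at -0.41 without the upper rows of the array, where its brightest spot lies, and Nsdhl was at 0.20 as a mean over probes. All other medians and counts moved less. Settings that only drop spots or genes, or multiply an array by a constant, leave many single differences unchanged. Much of the 268 was therefore fixed in advance. The setting without the upper rows and the subtraction of neighbouring spots were chosen after the data were seen. Signal over background limits what can be said of Fasn, Fads2 and the dimmer probes of Acaca.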
